A study of Mus musculus with 21 samples.

Results

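The nuclear genes for the subunits of respiratory complexes II, III, IV and V were examined in mouse liver RNA-seq. They were taken from the deposited count table by symbol: Sdha to Sdhd, Cyc1, and the Uqcr, Cox4 to Cox8a and Atp5 families among protein-coding genes of GENCODE M21 (GRCm38). This gave 46 genes of 46078 in the table: 4 of complex II, 9 of complex III, 16 of complex IV and 17 of complex V. A count was recorded for 45 of them, and 44 passed the filter on low counts and were tested. The 2 others, Cox4i2 and Cox7b2, are isoforms that averaged 0.211 CPM and 0 CPM.

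The libraries came from a cross of genotype with diet. KO animals lacked Cse (labelled cse; gene symbol Cth), the enzyme that makes cysteine from cystathionine, and the comparison animals are labelled WT, although the study's text describes Cse+/− heterozygotes, so WT is used here only as a label. The diets were a defined amino acid control diet (CTR), the same without cysteine (noCys) and the same without tryptophan (noTrp), with the remaining amino acids raised in proportion. On the control diet there were 3 WT and 4 KO libraries, without cysteine 4 WT and 3 KO libraries (KO noCys replicates 1, 3 and 4), and without tryptophan 2 WT and 5 KO libraries. By the study's methods all animals were male, at least 9 weeks old and calorie restricted and the knockout was on a mixed 129 and C57BL/6 background. WT noTrp, with 2 libraries that differed widely (Atp5b at 1724 and 973 CPM), gives the least precise comparisons.

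Complex II (succinate dehydrogenase) passes electrons from succinate to ubiquinone and is wholly nuclear encoded. Complex III passes them from ubiquinol to cytochrome c, complex IV from cytochrome c to oxygen, and complex V uses the proton gradient to make ATP. The last 3 join nuclear subunits to a few made inside the mitochondrion. Their catalytic cores are large proteins, surrounded by many small accessory subunits. Hepatocytes are rich in mitochondria, and amino acid shortage in liver is known to lower cytosolic translation and to induce stress-responsive transcription.

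Totals were 8889951 to 27230852 counts per library. The targeted gene Cth lay between 108 and 452 CPM in the 9 WT libraries and between 6.34 and 14.99 CPM in the 12 KO libraries. Hepatocyte markers were abundant throughout. As CPM of unscaled library totals, their summed level was lower in KO noCys (62121 to 85157 CPM) than in any other library (85667 to 116965 CPM). The gap to the next library was narrow, and TMM-scaled sums were not compared. In bulk tissue, fewer cells of a type and less RNA per cell cannot be told apart. The part that this fall of hepatocyte markers has in the results below was not tested.

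Per kilobase of the principal transcript, the members differed widely in level. Averaged over all 21 libraries, the highest was Cox6a1 (1124 CPM per kb), the liver form of a complex IV subunit, followed by Atp5e (866), Atp5g3 (846) and Cox4i1 (816). Among large core subunits, Atp5b was at 631 and Atp5a1 at 398, while Uqcrc1 was at 187 and Sdha at 129.98 CPM per kb. Small subunits ranged over similar levels, for example Atp5k at 593 and Atp5mpl at 216 CPM per kb. The isoforms typical of other tissues were near the floor: Cox7a1 at 3.22, Cox6a2 at 1.64, Cox6b2 at 0.809 and Cox4i2 at 0.288 CPM per kb.

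The promoters of 4 members are shown because these genes carry the contrast described below: Atp5k, Uqcr11 and Sdhd fell in KO noCys, and Atp5b did not. Each is the 120 bases just upstream of the RefSeq start site (GRCm38.p6, read 5′ to 3′ on the strand of the gene). Capitals mark a match to the NRF1 motif (gcgca, any base, gcgc, on either strand) or to the ETS core bound by GABPA (CCGGAAG or CTTCCGG); both factors are textbook regulators of respiratory genes.
Atp5k (chr5:108434400-108434519, minus strand): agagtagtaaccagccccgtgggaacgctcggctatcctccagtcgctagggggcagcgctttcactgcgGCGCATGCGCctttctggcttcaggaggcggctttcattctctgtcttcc
Uqcr11 (chr10:80406822-80406941, minus strand): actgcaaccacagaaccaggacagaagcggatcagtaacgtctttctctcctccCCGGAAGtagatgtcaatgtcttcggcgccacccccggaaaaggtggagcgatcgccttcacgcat
Sdhd (chr9:50603850-50603969, minus strand): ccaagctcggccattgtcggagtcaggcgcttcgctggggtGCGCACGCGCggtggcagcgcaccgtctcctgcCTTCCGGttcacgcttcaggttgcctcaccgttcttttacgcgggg
Atp5b (chr10:128083187-128083306, plus strand): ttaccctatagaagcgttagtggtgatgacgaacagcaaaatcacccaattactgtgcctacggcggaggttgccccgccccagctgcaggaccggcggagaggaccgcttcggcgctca

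Over the full promoter windows, from 250 bases before to 50 after the start, sequences were given for 33 of the 46 members. The NRF1 motif was in 10 of the 33 (30.3%) against 5.19% of the promoters of all 27025 symbols, and the ETS core in 12 of the 33 (36.4%) against 9.93%. Among members whose level was called lower in KO noCys against WT noCys, 5 of 17 held the NRF1 motif and 8 of 17 the ETS core, against 5 of 14 and 4 of 14 of those that were not called. The CEBP-ATF response element TGATGCAA, known from the amino acid response, was in 0 of the 33 (1.03% of all symbols), and the antioxidant response element TGACTCAGC was also in 0 of the 33 (0.503%). Such a match is a run of letters and says nothing of binding.

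The main question was how these genes stood when cysteine could be neither eaten nor made. In KO noCys against WT noCys, 24 of the 44 tested members were called (edgeR quasi-likelihood test, Benjamini-Hochberg adjusted p under 0.05 over 14370 genes), where 28.2% of all genes were. The change was mostly downward: 21 members fell, against 13.4% of all genes, and 3 rose, against 14.8%. Every complex had members that fell, with 2 of 4 in complex II, 5 of 9 in complex III, 7 of 14 in complex IV and 7 of 17 in complex V. The median log2 fold change of the 44 was -0.33, where that of all genes was -0.02. Of the 41 members that averaged above 2 log2 CPM, 19 fell and 2 rose. In 23 members every KO noCys library was below every WT noCys library, against 18.1% of all genes.

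**Figure D1:**
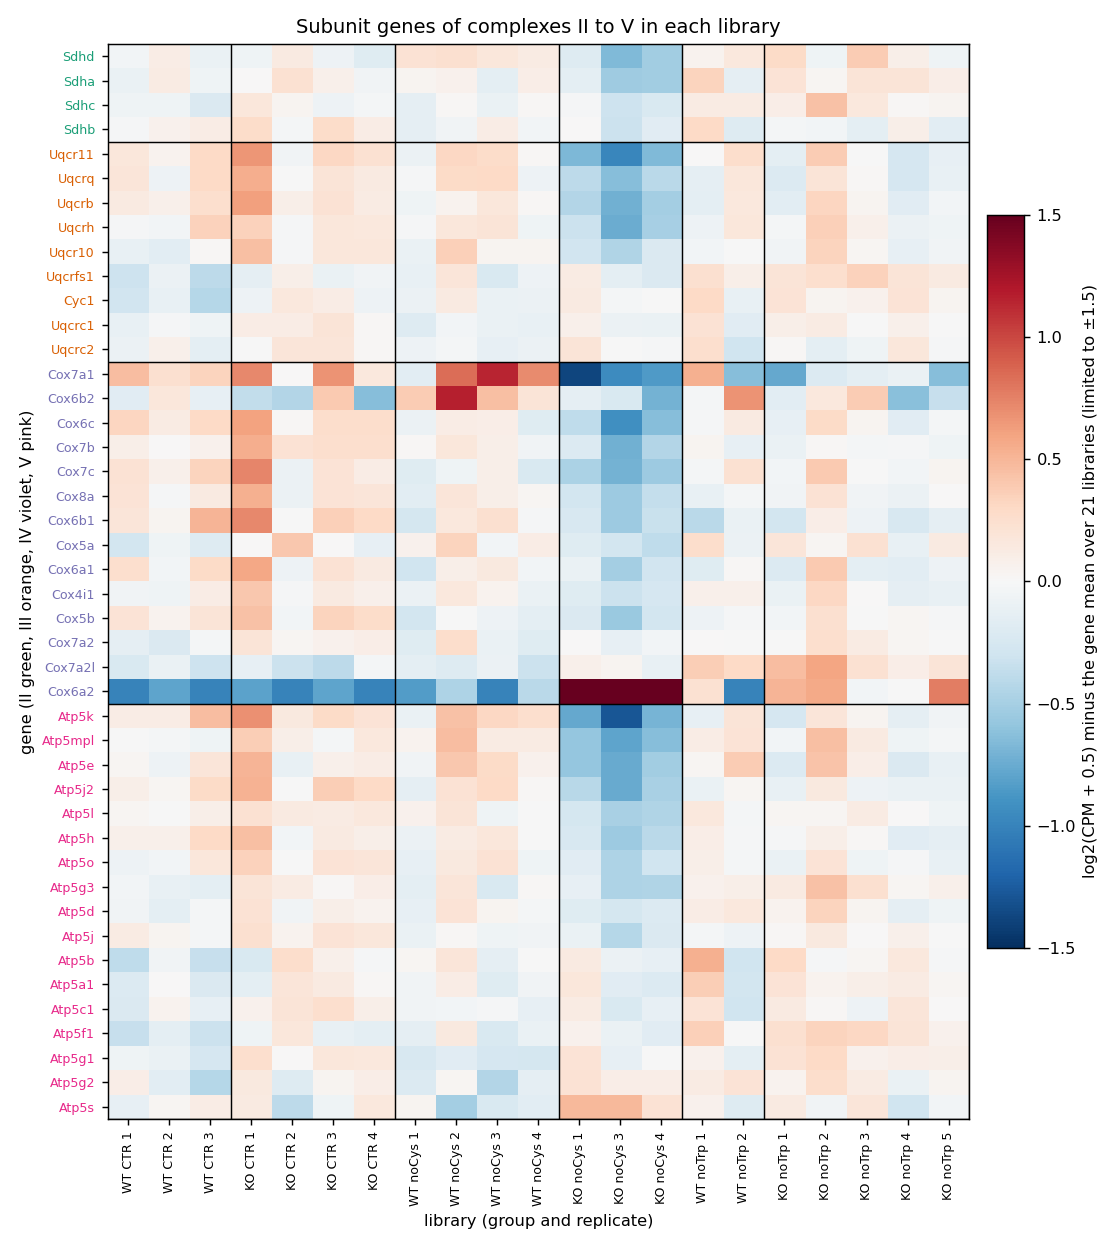
Level of the 44 tested members (rows, by complex) in the 21 libraries (columns), as log2(CPM + 0.5) minus the mean of the gene. The 3 KO noCys columns are low for most small subunits of each complex and high for Cox6a2, and KO CTR replicate 1 is high for many of the same small subunits.

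Within complex II, whose 4 genes were described whatever their values, the membrane anchor Sdhd was the member that moved most. Its level was 219, 223, 212 and 204 CPM in WT noCys and 165, 119 and 131 CPM in KO noCys, so that the groups did not overlap. It fell by 0.64 (SE 0.12, adjusted p = 0.000776). Sdha, the flavoprotein that oxidizes succinate, was at 383, 392, 336 and 400 CPM in WT noCys and at 338, 258 and 259 CPM in KO noCys, where replicate 1 lay within the WT range. Sdha fell by 0.41 (SE 0.12, adjusted p = 0.0168), and this call was lost without KO noCys replicate 3 or 4. The iron-sulphur subunit Sdhb (-0.13, SE 0.12, adjusted p = 0.407) and the other anchor Sdhc (-0.14, SE 0.11, adjusted p = 0.355) were not called, with 95% intervals of -0.36 to 0.09 and -0.34 to 0.07.

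In complex III the 5 members that fell were all small accessory subunits. Uqcr11, the smallest, was at 305, 404, 392 and 330 CPM in WT noCys and at 203, 165 and 205 CPM in KO noCys. It fell by 0.91 (SE 0.17, adjusted p = 0.000479), and each KO noCys library was below each library of the 5 other groups, the lowest of which was at 273 CPM. Uqcrq, next to the cytochrome b core, was at 717, 883, 889 and 689 CPM against 552, 464 and 547 CPM and fell by 0.61 (SE 0.15, adjusted p = 0.00453). Uqcrb, a ubiquinone-binding protein, went from 157, 170, 185 and 166 CPM to 121, 99.5 and 115 CPM and fell by 0.60 (SE 0.14, adjusted p = 0.00284). The hinge protein Uqcrh and Uqcr10, named after their values were seen, were the others called. The 4 larger subunits were not called: Uqcrc1 and Uqcrc2 (the core proteins), Uqcrfs1 (the Rieske iron-sulphur protein) and Cyc1 (cytochrome c1) had log2 fold changes of 0.07, 0.14, -0.02 and 0.06. Uqcrc1, for example, was at 270, 299, 287 and 285 CPM in WT noCys and 324, 290 and 288 CPM in KO noCys.

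In complex IV, 3 well-expressed subunits led the falls. Cox6c was at 343, 393, 390 and 322 CPM in WT noCys and 279, 192 and 233 CPM in KO noCys, and fell by 0.63 (SE 0.14, adjusted p = 0.00323). Cox7b was at 296, 329, 312 and 283 CPM against 254, 178 and 217 CPM, and fell by 0.50 (SE 0.11, adjusted p = 0.00211). Cox7c was at 156, 169, 187 and 151 CPM against 127, 108 and 121 CPM, and fell by 0.49 (SE 0.16, adjusted p = 0.0251). All 3 are small single-helix subunits, and in each the groups did not overlap. The Cox7c call was lost without any of WT noCys replicates 2 and 3 and KO noCys replicates 3 and 4, and 51.9% of the 61-base windows of its transcript also occur in other annotated genes, so that its reads may be shared. Cox8a was called lower (-0.43, adjusted p = 0.0154), but not without KO noCys replicate 3, under library totals or with the coding length correction. Among the liver isoforms, Cox4i1 (-0.26, adjusted p = 0.106), Cox6a1 (-0.27, adjusted p = 0.228), Cox6b1 (-0.41, adjusted p = 0.0617) and Cox7a2 (-0.01, adjusted p = 0.948) were not called.

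The isoforms of complex IV that belong to muscle or testis were low in level throughout. Cox6a2 (GRCm38 chr7:128205435-128206387) is the heart and skeletal muscle form of the subunit that liver carries as Cox6a1. It was higher in KO noCys than in any other group. It was also detected without tryptophan, with counts of 17, 11, 8, 5 and 16 in KO noTrp and 10 and 0 in WT noTrp. Its counts were 1, 2, 0 and 5 in the WT noCys libraries and 43, 153 and 89 in KO noCys, or 4.85, 7.29 and 5.72 CPM in the latter. In KO CTR only 2 reads were counted in 4 libraries. From summed counts the level in KO noCys was 44.2 times that in WT noCys (95% exact interval 22.1 to 103, counting error only) and the fitted log2 fold change was 5.33 (SE 0.60, adjusted p = 4.16e-06). Cox6a1 stood at 591, 446 and 517 CPM in the same libraries.

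Markers of muscle were summed beside it, over 8 genes. As CPM of unscaled library totals, their sum was 0.787, 1.79 and 5.03 CPM in KO noCys replicates 1, 3 and 4. It was 0.754 to 1.89 CPM in the other groups. In replicate 4, 7 of the 8 were detected (all but Myh4), while in replicates 1 and 3 only Mylpf was, the other 7 being at 0. Cox6a2 was highest in replicate 3, and its log2 fold change stayed between 5.03 and 6.02, and called, with any 1 of the 7 compared libraries left out. Brown and white adipocyte markers were at 0 in all 3 KO noCys libraries. The Cox6a2 locus overlaps Itgad on the opposite strand by 70 bases, and Itgad had no counts in KO noCys.

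Cox7a1, the heart and muscle counterpart of Cox7a2, went the opposite way. It was at 0.933, 2.37, 3.04 and 2.12 CPM in WT noCys and at 0.113, 0.334 and 0.386 CPM in KO noCys, from 111 and 14 summed counts. It fell by 2.74 (SE 0.51, adjusted p = 0.000532). Cox6b2, the testis form of Cox6b1, was at 0.700, 1.58, 0.760 and 0.554 CPM in WT noCys and 0.338, 0.286 and 0.0643 CPM in KO noCys, from 45 and 10 summed counts. It is among the 21 members called lower, but it passed the filter only with WT noCys replicate 2 present, a library of the group where it is high. Its call is therefore not relied on by itself, although the counts of all tested members, also those by coding length, include it. The counts of members above 2 log2 CPM leave it out. Cox4i2, the lung form of Cox4i1, had 6 counts in KO noCys and 9 in WT noCys and was not tested. Cox7a2l, which helps join complexes III and IV and is no standing complex IV subunit, was not called (0.19, SE 0.12, adjusted p = 0.234).

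**Figure D2:**
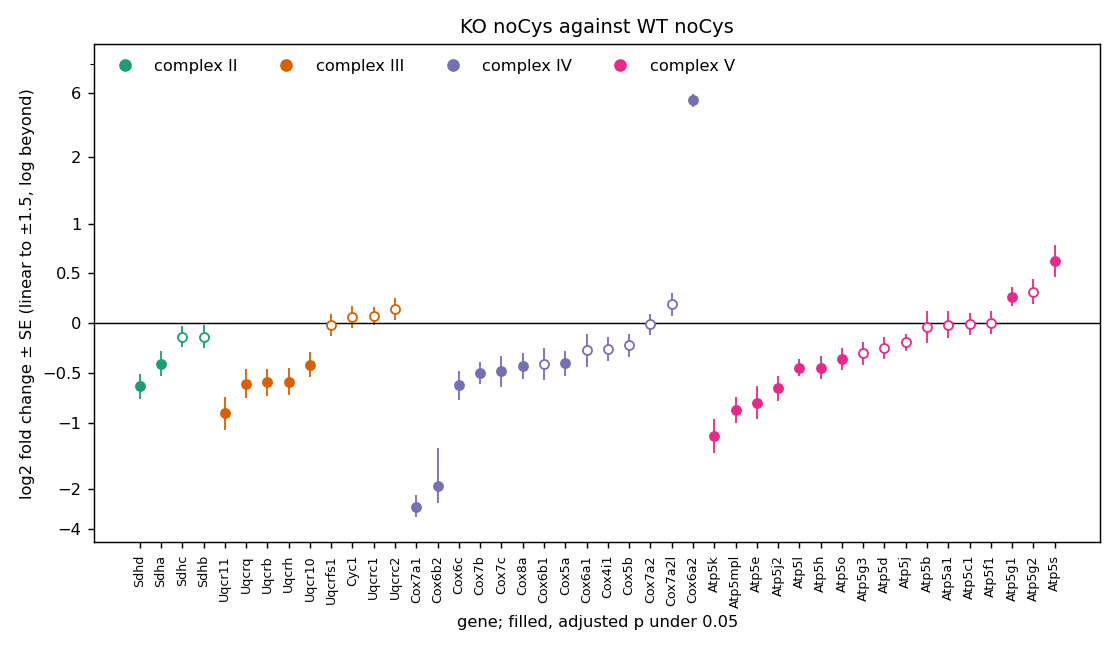
Log2 fold change with its SE of each tested member in KO noCys against WT noCys, by complex; filled points have an adjusted p under 0.05, and the axis is linear to ±1.5 and logarithmic beyond. In complex III the filled points are 5 small subunits below 0; in complex V 7 filled points lie below 0 and Atp5g1 and Atp5s above it, while Uqcrc1, Uqcrc2, Cyc1, Atp5a1, Atp5b and Atp5c1 are open and near 0.

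In complex V the largest falls were in small subunits. Atp5k (subunit e, which takes part in pairing of the enzyme) was at 197, 286, 262 and 251 CPM in WT noCys and 124, 86.3 and 130 CPM in KO noCys. It fell by 1.13 (SE 0.17, adjusted p = 6.97e-05), more than any other member above 2 log2 CPM, and its KO noCys libraries lay below every library of the 5 other groups. Atp5mpl, a small subunit at the base of the enzyme, stood at 134, 179, 141 and 141 CPM against 86.6, 74.4 and 83.2 CPM and fell by 0.87 (SE 0.13, adjusted p = 7.51e-05). Atp5e, the epsilon subunit of the central stalk, was at 344, 471, 433 and 372 CPM against 238, 211 and 248 CPM and fell by 0.80 (SE 0.17, adjusted p = 0.00137). The other members called lower, named after their values were seen, were Atp5j2 and Atp5l (subunits f and g), Atp5h (subunit d) and Atp5o (the stalk's OSCP), at -0.66, -0.45, -0.45 and -0.36.

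The main subunits of the catalytic head were not called. Atp5b, the beta subunit that holds the catalytic sites, was at 1219, 1357, 1088 and 1189 CPM in WT noCys and 1312, 1124 and 1101 CPM in KO noCys (-0.04, SE 0.16, adjusted p = 0.871, 95% interval -0.35 to 0.27). Atp5a1 (alpha) and Atp5c1 (gamma) were both at -0.01 and were not called. The Atp5g genes encode the same mature c subunit of the rotor. Atp5g1 rose by 0.27 (SE 0.10, adjusted p = 0.0432), from 175, 184, 173 and 172 CPM to 238, 190 and 207 CPM, but this call ended in 6 of the 7 fits that left out a WT noCys or KO noCys library, all but that without KO noCys replicate 3. Atp5g2 (0.32, adjusted p = 0.0576) and Atp5g3 (-0.30, adjusted p = 0.0562) were not called; Atp5g3 was the most abundant of the 3 by CPM per kb, and 87.2% of the Atp5g2 windows occur in other genes. Atp5s, which has an ATP synthase name but is not a subunit by role, rose by 0.63 (SE 0.16, adjusted p = 0.00776), from 5.41 to 8.11 CPM in WT noCys to 9.25 to 11.3 CPM in KO noCys.

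**Figure D3:**
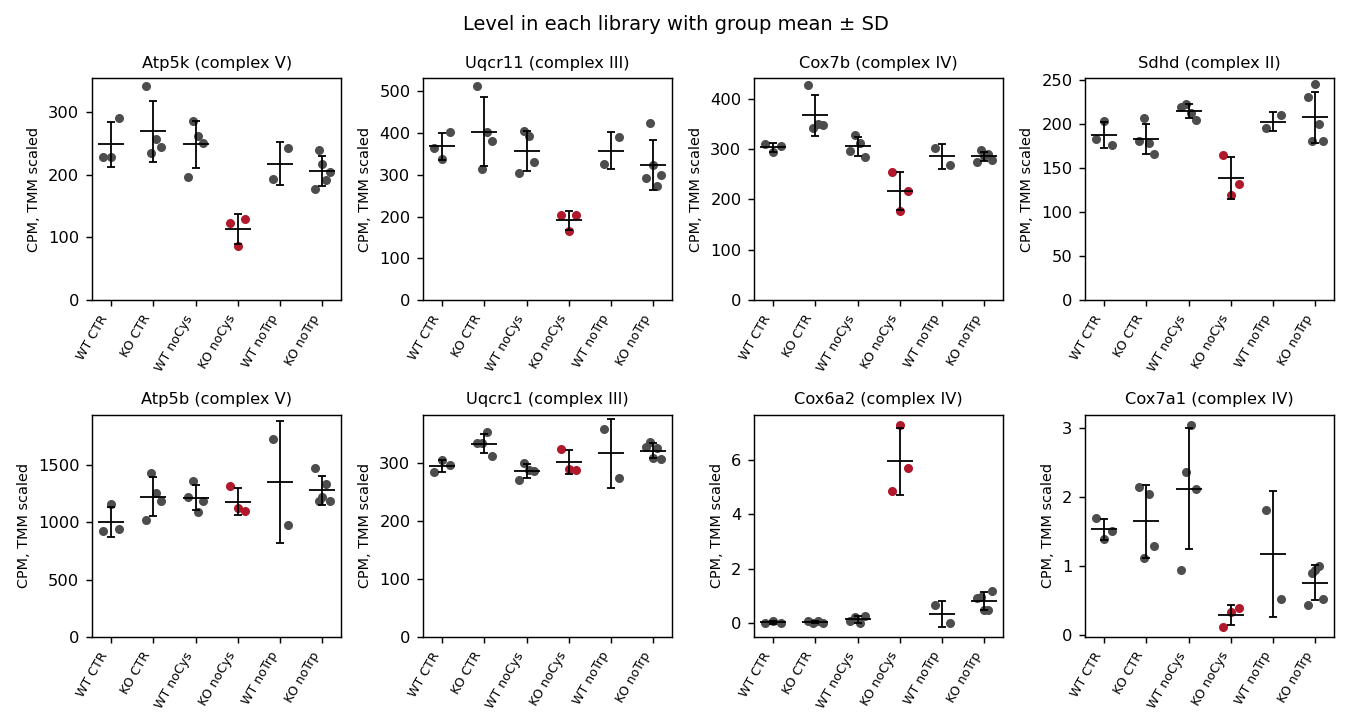
CPM after TMM scaling of 8 members in each library (points; KO noCys in red) with the group mean and SD. Atp5k, Uqcr11, Cox7b and Sdhd are lowest in KO noCys, Atp5b and Uqcrc1 overlap across groups, and Cox6a2 and Cox7a1 move in opposite directions at levels of a few CPM.

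The members that fell differed from the others by coding length, a property the selection did not use. Of the 17 tested members with up to 100 codons, 14 fell and their median was -0.61, while of the 11 members above 200 codons 2 fell (Sdha and Atp5o). Cox6b2 (88 codons), whose call is not relied on here, is among the 14. The medians were -0.02 for 201 to 400 codons and -0.01 above 400. Members called lower had a median of 82 codons and those not called had 169. Across the 44 members Spearman's rho between log2 fold change and codon number was 0.65 (0.62 with the length of the principal mRNA); it describes genes measured in the same libraries and has no p. The share of cysteine codons had a rho of 0.12, and 9 of the 21 members that fell have no cysteine codon, as do 5 of the 20 not called and 0 of the 3 that rose.

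Other short genes were also low in KO noCys, by a smaller median. Of all 268 tested coding genes up to 100 codons, members included, 32.1% fell and the median was -0.22. Without the members and the listed complex I subunits 247 remained, of which 27.9% fell, with a median of -0.19. As a median over these 247, the level relative to each gene's mean over all libraries was between -0.20 and -0.09 (log2) in the 3 KO noCys libraries and between -0.10 and 0.20 in the 18 others. For the 17 short members the same figures were -0.72 to -0.38 and -0.11 to 0.53. The level of short genes thus moved from library to library also within groups, KO CTR replicate 1 being the highest, and its part in the fall of the short members was not tested. With fold changes corrected for a smooth trend on coding length over all genes, 22 members were called, 17 lower (12.9% of all genes) and 5 higher (15.6%), and the median was -0.21.

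**Figure D4:**
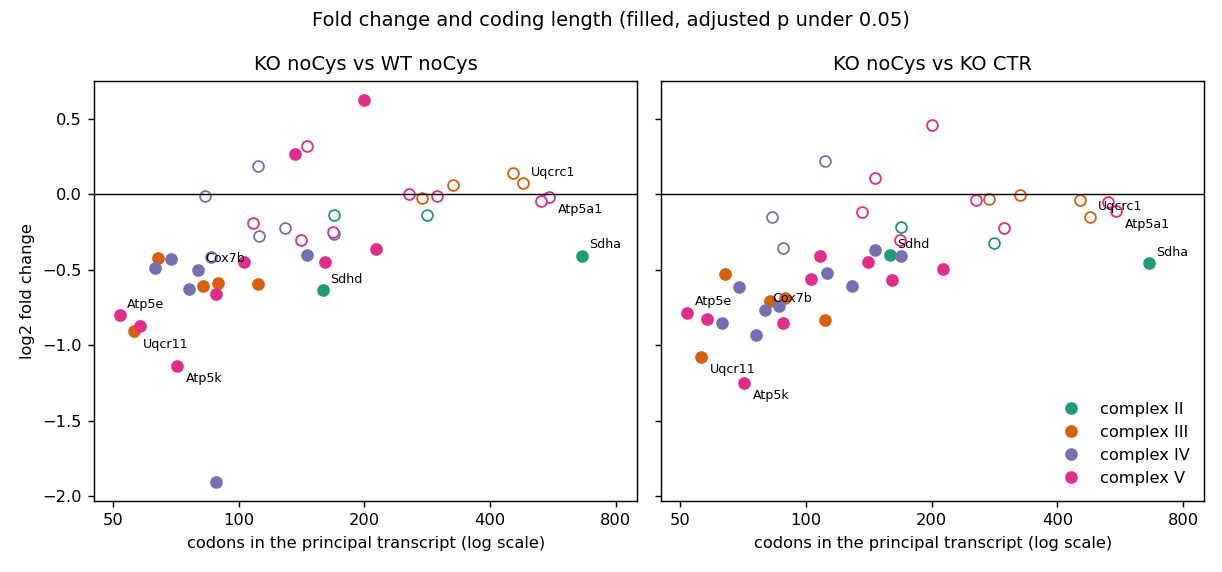
Log2 fold change of each member against the number of codons of its principal transcript (log axis), for KO noCys against WT noCys (left) and against KO CTR (right); filled points have an adjusted p under 0.05, and Cox6a2 and Cox7a1, beyond ±2, are not drawn. Against WT noCys, 14 of the 17 members up to 100 codons are called lower, Cox7a1 (not drawn) and Cox6b2 among them, and above 200 codons only Sdha and Atp5o are.

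A ratio within a library needs no scaling. The summed counts of the 17 short members divided by those of the 11 members above 200 codons were 0.700, 0.682 and 0.803 in KO noCys and higher in WT noCys, at 0.943, 1.07, 1.20 and 0.984. The ratio was 0.969 to 1.32 in WT CTR and 0.859 to 1.46 in KO CTR, so that KO noCys was below both. It was 0.717 and 1.20 in WT noTrp and 0.778 to 1.10 in KO noTrp, which overlap with KO noCys.

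The size of the fall depended on how libraries were scaled. Summed over all 46 members, TMM-scaled levels were 12727 to 15075 CPM in WT noCys and 10282 to 12459 CPM in KO noCys, without overlap. As CPM of unscaled library totals the same sums were 11902 to 14141 and 11728 to 12436, which overlap. Under totals alone 13 members were called lower, against 6.84% of all genes, and 7 higher, against 27.4%, the median of the members was -0.13, and the median of all genes stood at 0.20. Relative to all genes the members were at -0.33 under totals and at -0.32 under TMM. A library factor shifts all genes nearly alike, so this subtraction takes it out by construction and is no test of the scaling. RLE and upper quartile factors called 21 and 23 members lower, against 13.4% and 14.9% of all genes. Of the 24 called members, 15 kept their call and direction in every alternative run for this comparison: Sdhd, Uqcr11, Uqcrb, Uqcrh, Uqcrq, Cox6a2, Cox6c, Cox7a1, Cox7b, Atp5e, Atp5j2, Atp5k, Atp5l, Atp5mpl and Atp5s. Under library totals the calls of Sdha, Uqcr10, Cox5a, Cox6b2, Cox7c, Cox8a, Atp5h and Atp5o ended. Without KO noCys replicate 3, the library with the lowest levels, 13 members were called lower and 3 higher, where calls over all genes also fell, to 7.6% lower and 8.91% higher.

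**Figure D5:**
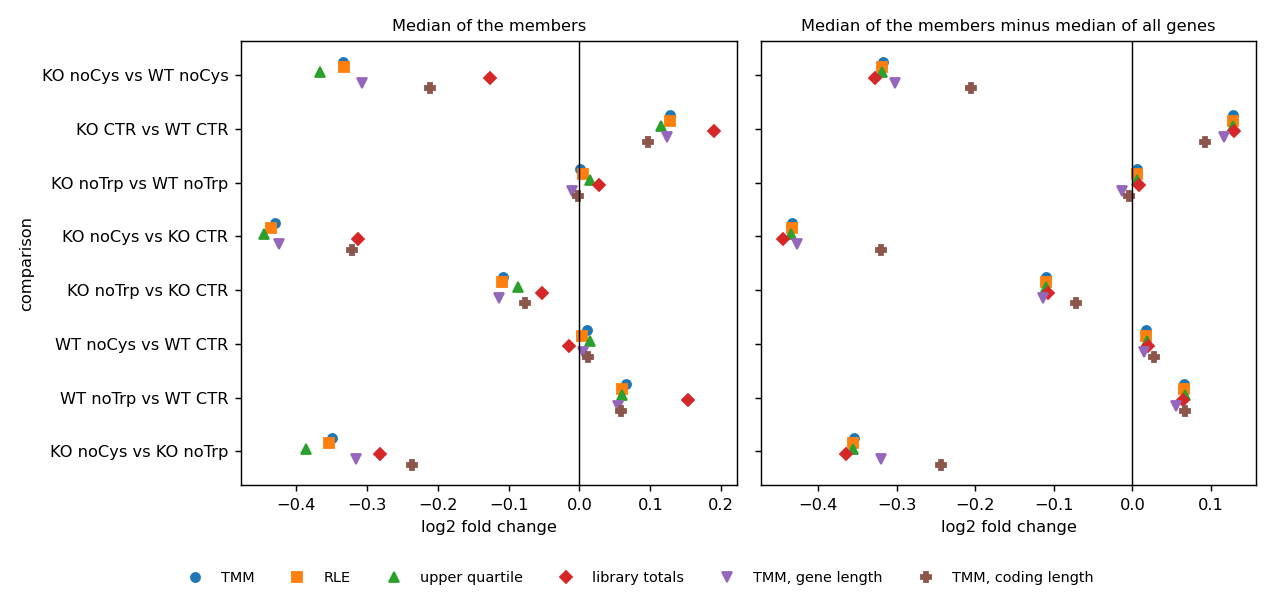
Median log2 fold change of the tested members in the 8 comparisons of group pairs under 6 scalings, as fitted (left) and minus the median of all genes (right). The 3 comparisons that involve KO noCys are below 0 under all 6 scalings. Subtracting the median of all genes takes out library factors by construction, so the scalings come together on the right, except for the coding length correction.

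The diet contrast within KO gave a similar account with a different control. In KO noCys against KO CTR, 27 of 44 members were called, where 20.2% of all genes were, with 26 lower (9.59% of all genes) and 1 higher (10.6%), and the median was -0.43. In 28 members all KO noCys libraries were below all KO CTR libraries, against 13.2% of all genes. In complex V Atp5k fell most (-1.25, SE 0.17, adjusted p = 5.04e-05), from 341, 234, 257 and 244 CPM. In complex III it was Uqcr11 (-1.08, SE 0.17, adjusted p = 0.000164), from 513, 313, 403 and 382 CPM. In complex IV, among members above 2 log2 CPM, it was Cox6c (-0.93, SE 0.15, adjusted p = 0.000183), from 552, 367, 436 and 437 CPM. Sdha (-0.46, adjusted p = 0.0118) and Sdhd (-0.40, adjusted p = 0.0246) also fell. Both calls ended without KO noCys replicate 3 or 4, and that of Sdhd also without KO CTR replicate 2, under library totals and with either length correction.

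This contrast reached subunits that were not called against WT noCys. The liver isoforms Cox4i1 (-0.41, adjusted p = 0.0198), Cox6a1 (-0.52, adjusted p = 0.0311) and Cox6b1 (-0.74, adjusted p = 0.00329) fell, as did Atp5g3 (-0.45, adjusted p = 0.0103). KO CTR replicate 1 was high in many of these, for example at 822 CPM for Cox4i1 where the other KO CTR libraries were at 611, 679 and 656 CPM, and without it 23 members were called lower, against 7.6% of all genes. The calls of Cox4i1 and Cox6a1 ended without KO CTR replicate 1, without KO noCys replicate 3 or 4 and under library totals; that of Cox6a1 also ended without KO CTR replicate 3 and with the coding length correction. The Atp5g3 call ended without KO noCys replicate 3 or 4 and under totals, and Cox6b1 stayed called in all 17 alternatives. The one rise was Cox6a2, whose summed counts were 206 times higher (95% exact interval 56.5 to 1710, counting error only) from 2 counts in KO CTR. Cox7a1 fell by 2.39 (SE 0.51, adjusted p = 0.00265). Both comparisons share the KO noCys libraries.

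Against the diet that lacked tryptophan, KO noCys was lower again. In KO noCys against KO noTrp 21 members were called, against 13.9% of all genes, 20 of them lower (6.75% of all genes) and 1 higher (7.17%), with a median of -0.35. In 29 members the KO noCys libraries were all below the KO noTrp libraries, against 9.55% of all genes. Atp5k (-0.86, SE 0.16, adjusted p = 0.0017), Uqcr11 (-0.76, SE 0.16, adjusted p = 0.0039) and Cox7c (-0.66, SE 0.15, adjusted p = 0.00677) were the largest falls of their complexes among members above 2 log2 CPM (Cox7a1, below it, was at -1.27 and not called), and complex II had 3 of 4 members called: Sdhd (-0.58), Sdha (-0.53) and Sdhc (-0.34, adjusted p = 0.0287). Cox6a2 rose by 2.87 (SE 0.44, adjusted p = 0.00031). Without KO noCys replicate 3, 7 members were called, 6 of them lower, where 1.89% of all genes were still called lower. The Sdha and Cox7c calls were then lost, and that of Sdhc was lost in 8 of 18 alternatives, 4 of them with a library left out (KO noCys replicate 3 or 4, KO noTrp replicate 2 or 3).

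The loss of tryptophan itself gave few calls among the members. In KO noTrp against KO CTR 2 of 44 were called, both higher, where 1.87% of all genes were called, 0.779% higher and 1.09% lower. In WT noTrp against WT CTR 1 was called, higher, where 3.19% of all genes were, 1.7% higher and 1.5% lower. In KO 28 of 44 fold changes were below 0, with a median of -0.11, and 15 members had an unadjusted p under 0.05, against 16.9% of all genes; limma-voom called 2 higher and 3 lower. The median was -0.054 without KO CTR replicate 1 and also under library totals. In WT the median was 0.07, but -0.02 without WT noTrp replicate 1 and 0.15 under totals, and 8 members had an unadjusted p under 0.05, against 18.2%. Cox7a2l rose in both, by 0.54 (SE 0.10, adjusted p = 0.00794) in KO and 0.54 (SE 0.14, adjusted p = 0.037) in WT. It was at 130, 142, 111, 101 and 107 CPM in KO noTrp and 86.0, 74.9, 71.3 and 91.8 CPM in KO CTR, and at 121 and 115 CPM in WT noTrp against 80.4, 88.0 and 75.7 CPM in WT CTR. In neither genotype did the groups overlap, and the call in WT was lost without WT CTR replicate 1 or 3 and, since either leaves a single library that is assumed to vary like the other groups, also without WT noTrp replicate 1 or 2. In KO it was lost when only the compared groups were fitted. Cox6a2 was the other call in KO noTrp, at 0.470 to 1.19 CPM against 0 to 0.0787 CPM in KO CTR.

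Genotype or cysteine removal alone gave no call among the members. In KO CTR against WT CTR 0 members were called by edgeR, DESeq2 (41 of the 44 given an adjusted p) or limma-voom, against 0.32% of all genes by edgeR, with 39 of 44 fold changes above 0 and a median of 0.13, and 7, 9 and 11 had an unadjusted p under 0.05 by edgeR (9.59% of all genes), DESeq2 and limma-voom. Without KO CTR replicate 1, 17 of 44 were below 0 in place of 5, and the median was 0.093. In WT noCys against WT CTR 0 were called by the same 3 tools, against 0.661% of all genes, with a median of 0.01 and 3 (13.9% of all genes), 3 and 9 members at an unadjusted p under 0.05. In KO noTrp against WT noTrp 0 were called by the 3 tools, against 0.195%, with a median of 0.00 and 0 members at an unadjusted p under 0.05 by any of them (8.91% of all genes by edgeR). For Atp5k, the 95% intervals of these 3 differences were -0.21 to 0.43, -0.32 to 0.32 and -0.43 to 0.27.

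Whether the fall belonged to the joint loss was tested as a difference of differences. Removing cysteine lowered 16 of 44 members more in KO than in WT, against 3.88% of all genes called lower, and raised 0 of 44 more, against 3.56%. Atp5k (-1.25, SE 0.24, adjusted p = 0.00346), Uqcr11 (-1.04, SE 0.23, adjusted p = 0.0102) and Cox7b (-0.77, SE 0.15, adjusted p = 0.00489) led complexes V, III and IV among members above 2 log2 CPM, and Sdhd (-0.60, SE 0.17, adjusted p = 0.0396) was the one of complex II. The calls of Atp5k, Uqcr11 and Cox7b held in all 24 alternatives and that of Sdhd in 10 of 24, with losses under library totals, both length corrections, no filter and 10 of the 14 libraries left out. In total 7.44% of all genes were called. The count was 7 without WT CTR replicate 1 (640 of 14340 genes) or KO noCys replicate 3 (430 of 14285). It was 9 without WT CTR replicate 2 (697 of 14303), and 10 without WT noCys replicate 2 (785 of 14349) or KO noCys replicate 4 (701 of 14259). Under library totals alone it was 8, of which 7 were lower. Over all genes 1.62% were called lower without KO noCys replicate 3 and 2.25% under totals.

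The effect of genotype differed between the noCys and noTrp diets for 5 members, where 6.35% of all genes were called, 3.03% lower and 3.32% higher. Atp5k (-1.06, SE 0.25, adjusted p = 0.0139), Atp5mpl (-0.82, adjusted p = 0.0139), Atp5j2 (-0.65, adjusted p = 0.0483) and Sdhd (-0.67, adjusted p = 0.0328) were lower and Cox6a2 higher (4.13, SE 1.04, adjusted p = 0.0214). The Atp5j2 call held in 4 of 24 alternatives and the Sdhd call in 11 of 24, against 22 for Atp5k, 21 for Atp5mpl and 20 for Cox6a2. Without KO noCys replicate 3 the count was 0 (2.91% of all genes), and without KO noCys replicate 1 it was 10 (1179 of 14354 genes). It was 3 without WT noCys replicate 2 (722 of 14349), KO noCys replicate 4 (686 of 14259) or KO noTrp replicate 3 (690 of 14306). Without WT noTrp replicate 1 the Cox6a2 value was -1.20, since that library held all 10 Cox6a2 counts of its group.

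The rest of the respiratory chain and its assembly were set beside the members by lists. Of 36 nuclear subunits of complex I, the entry point for NADH, 12 fell and 0 rose in KO noCys against WT noCys, where 13.4% of all genes fell and 14.8% rose. Their median was -0.27, close to that of the members. The largest was Ndufa1 (-1.07), followed by Ndufb2 (-1.03), both small accessory subunits, while the core subunits Ndufs1 (0.16) and Ndufv1 (0.09) were not called. Of the 5 tested subunits of complexes III to V that mitochondrial DNA encodes, mt-Co2 fell (-1.06) and the 4 others were not called; poly(A) selection captures these transcripts unevenly. Cycs, the somatic cytochrome c that carries electrons between complexes III and IV, rose by 0.42.

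Assembly factors and regulators are given for KO noCys against WT noCys, where 14.8% of all genes rose and 13.4% fell. Of 6 assembly factors of complex III, 3 rose (Lyrm7 by 0.94, Ttc19 by 0.34 and Bcs1l by 0.32) and Uqcc2 fell. Of 19 of complex IV, 3 rose (Cox18, Lrpprc and Cox15) and 3 fell, led by Pet100 (-1.40). For complex V the assembly factor Atpaf1 rose by 0.85 and the inhibitor Atpif1 fell by 0.89, with Tmem242 also lower; for complex II only Sdhaf4 of 4 fell (-0.55). Of 12 regulators, Tfb1m (0.89) and Gabpb1 (0.52) rose, and among the 10 not called were Nrf1 (0.16), Gabpa (-0.01), Esrra (-0.04), Tfam (0.15) and Ppargc1a (-0.46). The medians were -0.22, 0.08, -0.06 and -0.04 for the factors of complexes II, III, IV and V and 0.16 for the regulators. Against KO CTR, where 10.6% of all genes rose and 9.59% fell, 0 factors of complexes II to V rose and 1 of 4, 2 of 6, 2 of 19 and 2 of 5 fell, with medians of -0.22, -0.03, -0.19 and -0.12.

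Other mitochondrial proteins were set beside these. Of 27 chaperones, import proteins, carriers and citric acid cycle enzymes, 14 rose and 1 fell in KO noCys against WT noCys, with a median of 0.26. On the control diet 25 of the 27 were already above 0 in KO against WT, with a median of 0.19 and 0 called. The matrix chaperones Hspa9 (1.14), Hspe1 (0.83) and Hspd1 (0.66) and the import proteins Tomm40 (0.70) and Timm23 (0.61) were among those that rose, and the heart-type carrier Slc25a4 was the one that fell (-0.66). In KO noCys against KO CTR the counts were 7 higher and 2 lower for these 27, and 0 higher and 27 lower for the 36 complex I subunits (10.6% and 9.59% of all genes). In KO noCys against KO noTrp the 27 proteins gave 2 higher and 2 lower (median 0.08), near the 7.17% and 6.75% of all genes, and for cysteine removal, KO minus WT, 4 higher and 2 lower (median 0.01), where 3.56% and 3.88% of all genes were.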

How the data were processed

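The deposited table held raw read counts per gene for 21 liver libraries, which the authors made with HISAT2 2.1.0 and HTSeq 0.11.0 on GRCm38 from poly(A)-selected, paired-end libraries; the annotation release and strand setting were not given in the sources used here. Identifiers were matched to GENCODE M21, and the 935 not found held 0.0715% of the counts. A further 1 column matched no sample and was not used. Genes were filtered with filterByExpr (minimum count 10, minimum total 15), scaled by TMM and tested with edgeR 4.0.16 (quasi-likelihood, 6 groups, all libraries), with Benjamini-Hochberg adjustment over all genes tested. CPM are TMM scaled unless library totals are named. The fits were tested on simulated data. Nothing shows that replicates are independent beyond their labels, so p-values measure the spread between these samples.

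Members and lists were chosen with earlier results of these data known. Named were Cth, all complex II genes, the isoform sets, and, per complex III to V, the 3 called members with the largest rise and fall in KO noCys against WT noCys among those averaging above 2 log2 CPM (1 of each in other comparisons). Alternatives were other scalings and length corrections (coding length was added after seeing the data), no filter, a replicate block, DESeq2 1.42.0, limma-voom 3.58.1, the compared groups alone, and each library left out.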

Additional observations from a re-analysis of the deposited data

Results flagged for a closer look

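For the 27 named members, 3 groups had 4 or 5 libraries, and 6 of these 81 sets of levels held a library set apart from the others by Dixon's criterion, which chance alone gives in about 1 of 20 sets. Of these, 4 were KO noTrp replicate 2, at 768 CPM for Cox4i1, 827 for Cox6a1, 232 for Cox7c and 462 for Cox8a, where the lowest KO noTrp libraries were at 564, 550, 172 and 373 CPM. KO CTR replicate 1 stood at 428 CPM for Cox7b (lowest 341), and WT noCys replicate 2 at 179 CPM for Atp5mpl (lowest 134).

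The effect of cysteine removal differed between KO and WT for 16 members by the interaction test of edgeR (all adjusted p under 0.05). The differences on the log2 scale were -0.60 for Sdhd, -0.71 for Uqcr10, -1.04 for Uqcr11, -0.72 for Uqcrb, -0.65 for Uqcrh and -0.69 for Uqcrq. In complex IV they were -0.67 for Cox5a, -0.68 for Cox6c, -2.83 for Cox7a1 and -0.77 for Cox7b. In complex V they were -0.92 for Atp5e, -0.83 for Atp5j2, -1.25 for Atp5k, -0.58 for Atp5l, -1.06 for Atp5mpl and -0.53 for Atp5o. These calls were not equally stable: those of Uqcr11, Cox7a1, Cox7b, Atp5j2, Atp5k and Atp5mpl held in all 24 alternatives, Sdhd in 10, Uqcrh and Uqcrq in 11, Cox6c in 8 and Atp5o in 7, the last 4 being lost under library totals and with the replicate block. The effect of genotype differed between the noCys and noTrp diets by -0.67 for Sdhd, 4.13 for Cox6a2, -0.65 for Atp5j2, -1.06 for Atp5k and -0.82 for Atp5mpl.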

How the results depend on the processing

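Members called in KO noCys against WT noCys numbered 16 to 25 with 1 library left out, against KO CTR 20 to 28, and against KO noTrp 7 to 25. Calls over all genes moved as well in these fits. They ran from 2358 (of 14285) to 3895 (of 14354), from 1379 (of 14285) to 2979 (of 14312) and from 570 (of 14285) to 2124 (of 14354). In KO noTrp against KO CTR the count of 2 became 4 with the gene length correction, 4 with DESeq2, 5 with limma-voom, 0 with the compared groups only and 2 to 5 with a library left out. Over all genes these fits called 301 of 14370, 607 of 12958, 610 of 14370, 136 of 13052, and from 105 (of 14289) to 447 (of 14312). In WT noTrp against WT CTR the count of 1 became 3 under library totals (501 of 14370 genes), 0 with the replicate block (191 of 14370) and 3 with DESeq2 (805 of 11013). It became 0 with limma-voom (32 of 14370) and 0 with the compared groups only (3 of 13272). For cysteine removal, KO minus WT, 16 became 8 under library totals, 10 with the coding length correction and 7 to 19 with a library left out. Over all genes these fits called 1178 and 1100 of 14370, and from 430 (of 14285) to 1399 (of 14354). For the genotype effect, noCys minus noTrp, 5 became 2 under library totals (1256 of 14370 genes), 8 with the gene length correction (982 of 14370) and 3 without the filter (715 of 26504). It became 3 with the replicate block (630 of 14370), 10 with DESeq2 (1266 of 13789), 2 with limma-voom (553 of 14370) and 3 with the compared groups only (651 of 14101). Without KO noCys replicate 3 it was 0 (416 of 14285), and without KO noCys replicate 1 it was 10 (1179 of 14354). The cause of these changes was not tested. Cox7a2 in KO noCys against WT noCys turned from -0.01 to 0.20 under library totals, 0.037 and 0.16 with the gene and coding length corrections and 0.020 with the block, and lay between -0.062 and 0.10 with a library left out. Sdhb and Sdhc turned to 0.073 and 0.071 under library totals. Cox6a2 in the genotype effect lay between -1.20 (without WT noTrp replicate 1) and 5.06 with a library left out. Correlations between same-numbered libraries were -0.36 to 0.35 over 41 pairs, with a median of -0.035 and 9 pairs over 0.1. They were centred within small groups, which shapes their signs, so they cannot exclude that the numbers pair the samples. With the replicate block 20 members were called in KO noCys against WT noCys, 18 lower and 2 higher, where 1657 and 1847 of 14370 genes were.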
